A study of Mus musculus with 4 samples.

Results

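Sarcoplasmic reticulum and triad genes were examined in cultured mouse myoblasts that had received a retrovirus for Twist2 or for green fluorescent protein (GFP). The genes were chosen by name from the authors' table of 3760 genes: Casq2, Cacna1s, Srl, Hrc, Trdn and Jph1, and further Ryr1, Atp2a1, Casq1 and Jph2 where present. The table held 8 of these 10 names. Casq1 and Jph2 were not in it and were not analysed here. In skeletal muscle the triad is the place where a T-tubule, an infolding of the surface membrane, lies against the sarcoplasmic reticulum, the calcium store of the fibre. A voltage sensor in the T-tubule opens the release channel of the reticulum, proteins in its lumen hold the stored calcium, and a pump returns calcium after contraction. Cultured myoblasts have little of this system and build it as they fuse into myotubes.

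The cells were myoblasts from skeletal muscle of adult C57BL/6 mice, which the labels call twist2+. Twist2 is a basic helix-loop-helix transcription factor. The Twist2 virus carried Twist2-IRES-GFP and the other virus carried GFP, so that both vectors had GFP in common. Cells were exposed to virus for 24 h and then kept in growth medium, which held 20% fetal bovine serum, for a further 24 h. Part of the cells was collected at that point and part after 5 days in differentiation medium, which held 2% horse serum. This gave 4 groups of 1 total RNA library each, named here by virus and medium: in differentiation medium, Twist2 and GFP, and in growth medium, Twist2 and GFP. Neither the number of animals behind the culture nor any selection of infected cells is given in the sources used here. With 1 library a group no difference has a replicate check, no p-value is given, and an effect of a library cannot be told apart from one of its condition.

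The libraries held 9235281 to 12362290 reads. Twist2 had 674 and 1438 CPM (reads of the gene per 1000000 reads of the library) in the Twist2 differentiation and growth medium libraries, against 0 reads and 1 read in the GFP differentiation and growth medium libraries. The twist2+ name of the cells is thus the labels' own and not a state that these values show. Of 8 myoblast markers 7 were in the table, with Myf5 missing, and their summed level was 9591 CPM in Twist2 differentiation medium, 16350 CPM in GFP differentiation medium, 2756 CPM in Twist2 growth medium and 5762 CPM in GFP growth medium. The sum hides opposite directions. In GFP differentiation and growth medium Des had 6503 and 1501 CPM, but Myod1 had 810 and 1184 CPM and Pax7 4.01 and 78.7 CPM. Pax7 had 34.6 and 60.5 CPM in Twist2 differentiation and growth medium. No listed name of the endothelial, immune, adipocyte or Schwann cell markers was in the table, which does not show that these RNAs were lacking. All 8 genes were in the table because they passed the authors' selection against the GFP growth medium library, described with the processing.

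Promoter sequences were available for 5 of the 8 genes (RefSeq, GRCm38.p6), and 4 are shown: those of Cacna1s, Hrc and Atp2a1 because they share one motif, and that of Casq2 as one that lacks it. The promoter of Ryr1, which is not shown, lacks that motif too. All 8 genes had the same order of libraries, given below, so that order cannot tell promoters with the motif from those without it. E-boxes, written CANNTG, are the sites that helix-loop-helix factors such as MyoD and Twist2 bind. The windows of the motif counts covered both strands from 250 bases before each RefSeq start site to 50 bases past it. Every match in these genes lay before the start site. The bases are printed 5′ to 3′ on the strand of the gene, up to the first start site that RefSeq or GENCODE M21 gives, with each E-box in capitals.
Cacna1s (chr1:136052561-136052749, plus strand): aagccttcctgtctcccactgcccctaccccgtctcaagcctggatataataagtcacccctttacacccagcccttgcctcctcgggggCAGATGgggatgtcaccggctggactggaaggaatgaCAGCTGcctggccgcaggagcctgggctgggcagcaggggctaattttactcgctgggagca
Casq2 (chr3:102086165-102086414, plus strand): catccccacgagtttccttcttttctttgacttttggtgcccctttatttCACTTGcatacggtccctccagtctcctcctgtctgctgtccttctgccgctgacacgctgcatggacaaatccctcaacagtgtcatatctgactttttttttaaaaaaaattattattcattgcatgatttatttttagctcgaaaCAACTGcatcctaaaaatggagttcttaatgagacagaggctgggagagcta
Hrc (chr7:45335019-45335268, plus strand): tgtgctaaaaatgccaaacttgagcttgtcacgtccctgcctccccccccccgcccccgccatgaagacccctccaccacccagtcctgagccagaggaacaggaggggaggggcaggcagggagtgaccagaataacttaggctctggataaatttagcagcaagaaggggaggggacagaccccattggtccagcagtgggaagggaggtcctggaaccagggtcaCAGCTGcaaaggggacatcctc
Atp2a1 (chr7:126463109-126463323, minus strand): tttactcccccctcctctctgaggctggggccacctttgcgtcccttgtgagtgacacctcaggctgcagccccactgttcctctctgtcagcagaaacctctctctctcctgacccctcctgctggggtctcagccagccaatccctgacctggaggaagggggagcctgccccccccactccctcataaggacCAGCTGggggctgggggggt

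The form CAGCTG, which MyoD is known to favour, stood in 3 of the 5 promoters, those of Cacna1s, Hrc and Atp2a1, and in 13.0% of all 32851 promoters in the RefSeq table. The match began 123 bases before the RefSeq start site in Cacna1s, 55 in Atp2a1 and 22 in Hrc, and each match is also counted as an E-box. Any E-box stood in 4 of the 5, all but Ryr1, and in 66.2% of all promoters, so an E-box as such is common. The form CATATG, an E-box to which Twist proteins are known to bind, was in 0 of the 5 and in 3.46% of all. A MEF2 motif, the site of the MEF2 muscle factors, was in the Casq2 promoter and in 2.92% of all, and a CArG box, the site of serum response factor, was in 0 of the 5 and in 1.47% of all. These are matches of letters in a short window and say nothing of binding in these cells.

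The voltage sensor and the release channel were described first, as the pair that starts calcium release. Cacna1s (chromosome 1, 136052750 to 136119822, plus strand, GRCm38) encodes the pore-forming subunit of the T-tubule calcium channel that senses voltage. Its level was 137 CPM in Twist2 differentiation medium, 637 CPM in GFP differentiation medium, 0.271 CPM in Twist2 growth medium and 2.46 CPM in GFP growth medium. The growth medium values rested on 3 and 24 reads, so Cacna1s was near the limit of detection before differentiation in both cultures. Ryr1 (chromosome 7, 29003344 to 29125179, minus strand) encodes the ryanodine receptor, the release channel itself. It had 701 CPM in Twist2 differentiation medium, 2486 CPM in GFP differentiation medium, 29.2 CPM in Twist2 growth medium and 219 CPM in GFP growth medium. Unlike its voltage sensor, Ryr1 was thus well covered before differentiation, with 323 and 2138 reads in the Twist2 and GFP growth medium libraries.

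The next genes hold the triad together. Jph1 (chromosome 1, 16964560 to 17097889, minus strand) encodes junctophilin 1, which ties the reticulum to the T-tubule membrane. Jph1 had 80.6 CPM in Twist2 differentiation medium, 215 CPM in GFP differentiation medium, 6.69 CPM in Twist2 growth medium and 28.2 CPM in GFP growth medium. Its range across the 4 libraries was the narrowest of the 8 genes on the scale of CPM + 1. Trdn (chromosome 10, 33080554 to 33476709, plus strand) encodes triadin, which anchors calsequestrin to the release channel. Trdn had 111 CPM in Twist2 differentiation medium, 625 CPM in GFP differentiation medium, 0.723 CPM in Twist2 growth medium and 19.2 CPM in GFP growth medium. The Twist2 growth medium value came from 8 reads and the GFP growth medium value from 187.

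Calcium-binding proteins of the lumen followed. Casq2 (chromosome 3, 102086415 to 102146514, plus strand) encodes the calsequestrin best known from heart and slow or developing muscle. Casq2 had 324 CPM in Twist2 differentiation medium, 1709 CPM in GFP differentiation medium, 1.45 CPM in Twist2 growth medium and 3.69 CPM in GFP growth medium. Hrc (chromosome 7, 45335290 to 45338974, plus strand) encodes the histidine-rich calcium-binding protein, a lumenal partner of triadin. Hrc had 227 CPM in Twist2 differentiation medium, 925 CPM in GFP differentiation medium, 0.813 CPM in Twist2 growth medium and 15.3 CPM in GFP growth medium. In the growth medium libraries Casq2 had 16 reads in Twist2 and 36 in GFP cells, and Hrc was farther apart, with 9 and 149 reads. Srl (chromosome 16, 4480216 to 4541816, minus strand) encodes sarcalumenin, a calcium-binding glycoprotein beside the pump. Srl had 556 CPM in Twist2 differentiation medium, 2798 CPM in GFP differentiation medium, 7.59 CPM in Twist2 growth medium and 22.9 CPM in GFP growth medium. The pump gene Atp2a1 (chromosome 7, 126445858 to 126463108, minus strand), which encodes the fast-fibre calcium ATPase SERCA1, had 163 CPM in Twist2 differentiation medium, 429 CPM in GFP differentiation medium, 7.68 CPM in Twist2 growth medium and 32.8 CPM in GFP growth medium.

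All 8 genes had the same order of libraries: GFP differentiation medium was highest, then Twist2 differentiation medium, GFP growth medium and Twist2 growth medium. The order was not particular to them, since Tnni2, C1qtnf3, Pygm, Myom1 and Mylpf had it too. Those genes were found by the likeness of their profiles, so they do not show how common the order is. The share of all listed genes with this order is not given here. Together the 8 genes took 0.230% of the reads in Twist2 differentiation medium, 0.982% in GFP differentiation medium, 0.00544% in Twist2 growth medium and 0.0344% in GFP growth medium. Exons of Cacna1s, Ryr1, Jph1 and Atp2a1 overlap genes on the other strand in GENCODE M21, and the strand setting of the counting is not given in the sources used here, so reads of such partners cannot be told apart. Reads that Ryr1 shares with Ryr3, or Atp2a1 with Atp2a2, may also have been divided between the copies.

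**Figure D1:**
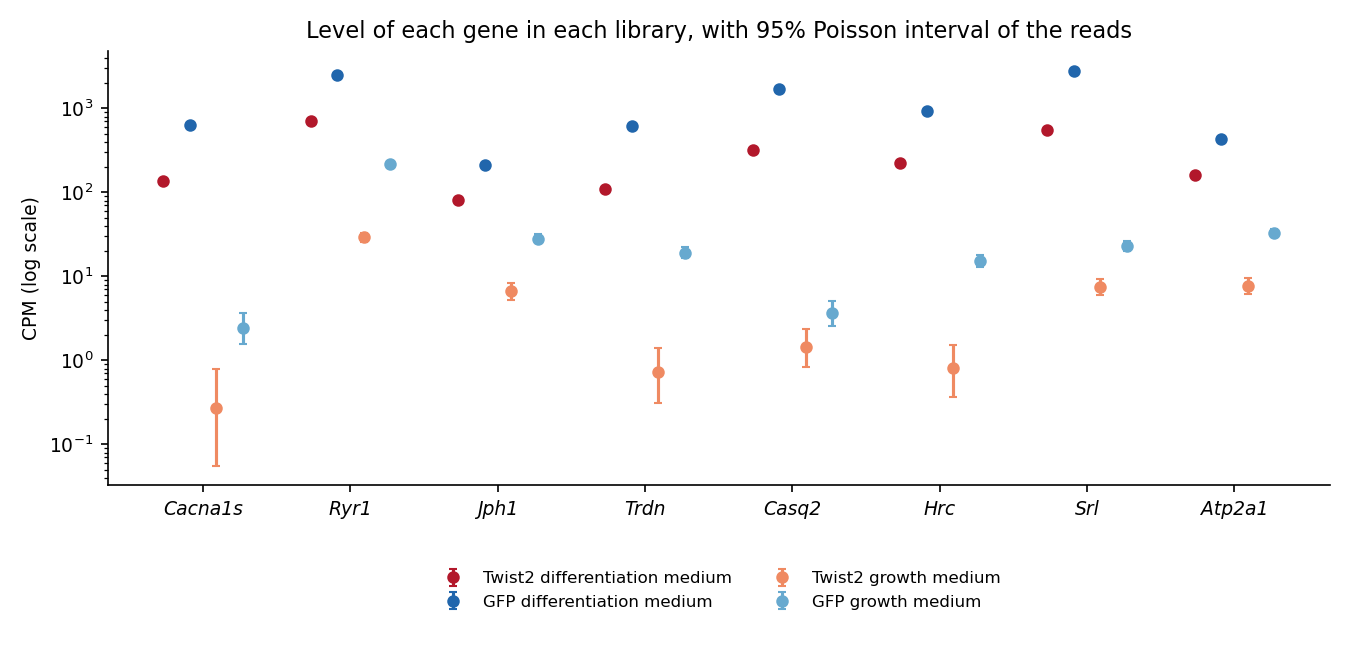
Level of each gene in CPM (log axis) in the 4 libraries, 1 point per library with the 95% Poisson interval of its reads. In every gene the GFP differentiation medium library is highest and the Twist2 growth medium library lowest, and Cacna1s spans from 0.271 to 637 CPM.

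The levels of these genes under forced Twist2 after 5 days of differentiation were compared between the 2 differentiation medium libraries. All 8 were lower with Twist2, at 17.8% to 38.0% of the GFP level. A gene was counted as different at a ratio of CPM + 1 of at least 2-fold and a level of 10 CPM or more in 1 of the libraries compared. By that rule 8 of 8 were lower, against a background of 25.2% of the 3437 tested genes lower and 25.4% higher. These are 867 lower and 873 higher genes, and with libraries scaled to the reads outside the table they were 1548 and 497. The median log2 ratio of CPM + 1 was -2.12 over the 8 genes and -0.06 over all listed genes.

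The genes differed among themselves by more than counting error. The log2 ratios that follow are of CPM without a pseudocount, with 95% counting intervals. Trdn stood lowest, with -2.49 (interval -2.57 to -2.40), next to Casq2 with -2.40 (interval -2.45 to -2.35), the protein that triadin anchors. Srl had -2.33 (interval -2.37 to -2.29) and Cacna1s -2.22 (interval -2.30 to -2.14). Hrc had -2.03 (interval -2.09 to -1.97) and Ryr1 -1.83 (interval -1.86 to -1.79). The smallest differences were those of Jph1, with -1.42 (interval -1.53 to -1.31), and Atp2a1, with -1.39 (interval -1.47 to -1.32). The tether and the pump thus reached 37.4% and 38.0% of the GFP level, where triadin and calsequestrin reached 17.8% and 19.0%.

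Other markers differed between the same libraries. Of 7 names for differentiated muscle 6 were in the table, and they summed to 6615 CPM in Twist2 and 45407 CPM in GFP cells in differentiation medium. Myog, a transcription factor of muscle differentiation, had 378 CPM in Twist2 and 1075 CPM in GFP cells there, and Myod1 had 1068 CPM in Twist2 and 810 CPM in GFP cells. Of 8 fibroblast and fibro-adipogenic markers 3 were in the table, Col3a1, Ly6a and Dcn, with sums of 8818 CPM in Twist2 and 561 CPM in GFP cells, of which Col3a1 made up nearly all and Ly6a had 0 reads in the GFP library. All 6 proliferation markers were in the table, with sums of 144 CPM in Twist2 and 27.6 CPM in GFP cells. In bulk RNA fewer muscle cells and less RNA per cell cannot be told apart, and the part of these differences in the result was not tested. Long transcripts were lower in the Twist2 library: the median log2 ratio of CPM + 1 was 0.38 in the shortest of 5 length groups and -0.78 in the longest. Ryr1 lies in that longest group, and Casq2, Hrc and Atp2a1 lie in the second shortest, whose median was 0.29. Trdn lies in the middle group, with a median of 0.07, and Cacna1s, Jph1 and Srl in the second longest, with -0.25. The part of length in the values of single genes was not tested.

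Before differentiation the same 8 genes were lower with Twist2 too, but their order differed from that after differentiation. Of the 8, 6 reached 10 CPM in a growth medium library and all 6 were at least 2-fold lower with Twist2, against a background of 10.6% of 3514 tested genes lower and 5.21% higher. These are 372 lower and 183 higher genes, and with median-of-ratios size factors they were 241 and 272. Cacna1s and Casq2 were too low in both libraries to be counted. Of the genes counted, Jph1, Trdn, Hrc, Srl and Atp2a1 reached 10 CPM only in the GFP library. The authors' selection also rests on this contrast, so the count of 6 is a description. The median log2 ratio of CPM + 1 was -1.94 over the 8 genes and -0.10 over all listed genes.

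On the scale of CPM without a pseudocount, Trdn had 3.77% and Hrc 5.32% of the GFP level in Twist2 growth medium. Their log2 ratios were -4.73 (interval -5.96 to -3.72) for Trdn and -4.23 (interval -5.39 to -3.27) for Hrc. Ryr1 followed with 13.3% of the GFP level, a log2 ratio of -2.91 (interval -3.08 to -2.74). Atp2a1 and Jph1 had log2 ratios of -2.10 (interval -2.46 to -1.75) and -2.08 (interval -2.47 to -1.70). Srl had -1.59 (interval -1.97 to -1.22), or 33.2% of the GFP level. Casq2, the gene with the second largest deficit after differentiation, had -1.35 (interval -2.30 to -0.47) from 16 reads in Twist2 and 36 in GFP cells. For Cacna1s the 3 and 24 reads of Twist2 and GFP cells gave -3.18 (interval -5.56 to -1.46), which places it anywhere among the others. Differentiated muscle markers summed to 27.6 CPM in Twist2 and 272 CPM in GFP cells in growth medium, and Myog had 3.52 CPM in Twist2 and 76.4 CPM in GFP cells. The 3 fibroblast and fibro-adipogenic markers summed to 3086 CPM in Twist2 and 820 CPM in GFP cells there, and the 6 proliferation markers to 1223 CPM in Twist2 and 781 CPM in GFP cells. The median log2 ratio by length ran from 0.07 in the shortest to -0.37 in the longest group. The part of these differences in the values was not tested.

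**Figure D2:**
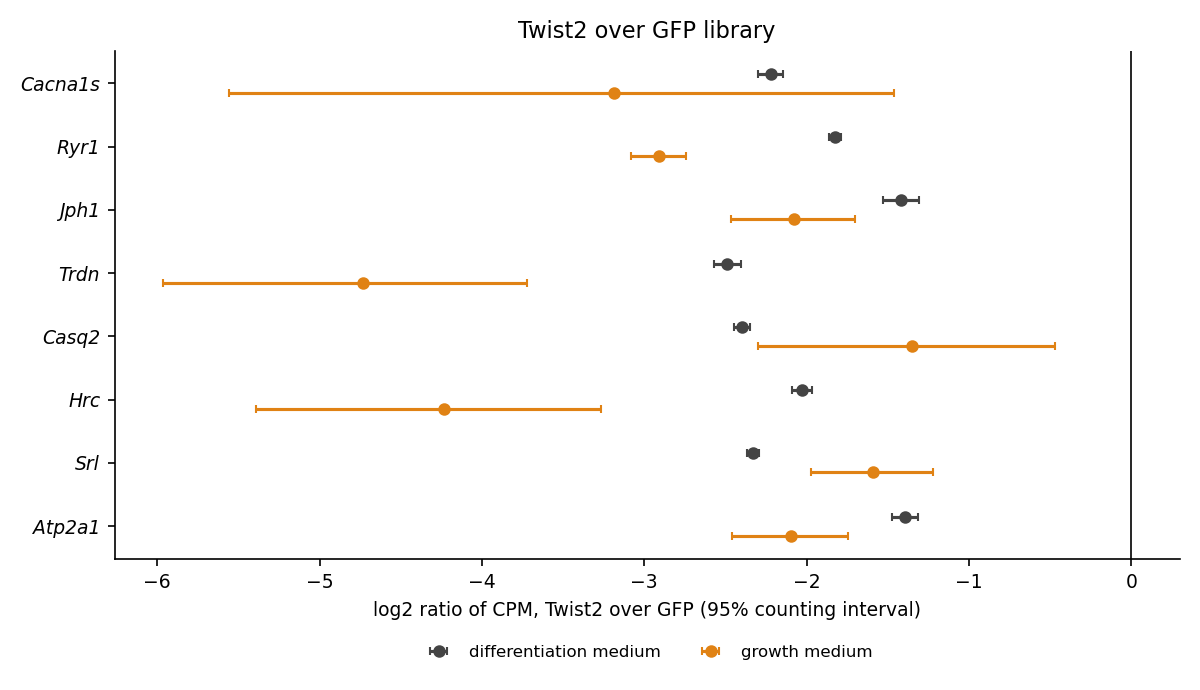
Log2 ratio of CPM, Twist2 over GFP, for each gene in differentiation medium and in growth medium, with 95% counting intervals. All points lie below 0, and Trdn (-4.73) and Hrc (-4.23) lie farther from 0 in growth medium than in differentiation medium, while Casq2 (-1.35) and Srl (-1.59) lie nearer.

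Differentiation was then followed within each culture. All 8 genes were at least 2-fold higher in differentiation than in growth medium in both cultures, against backgrounds of 26.5% of 3715 tested genes higher and 24.5% lower in Twist2 cells, and 32.6% of 3694 higher and 40.9% lower in GFP cells. The split over all genes depended on scaling. In Twist2 cells 984 were higher and 911 lower, against 1216 and 604 with libraries scaled to the reads outside the table. In GFP cells 1205 were higher and 1511 lower, against 1325 and 968 with size factors and 1490 and 646 with the reads outside the table. In GFP cells the authors' selection itself rests on this contrast. In Twist2 cells it bears on the count too, since a listed gene had to reach 10 CPM in 2 libraries, and Cacna1s and Casq2 did so only in the 2 differentiation medium libraries. Both counts of 8 are thus descriptions. Medians of the log2 ratio of CPM + 1 were 6.02 in Twist2 cells and 5.39 in GFP cells, against -0.22 and -0.40 over all listed genes. Every one of the 8 was also higher in Twist2 differentiation medium than in GFP growth medium. The authors' selection rests on this contrast too, and the share of all listed genes is not given here. For these 8 genes, as a description, differentiated Twist2 cells lay above the level of undifferentiated GFP cells. The nearest to that level was Jph1, with 80.6 CPM in Twist2 differentiation medium against 28.2 CPM in GFP growth medium.

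The release channel, tether and pump had the smallest ratios in both cultures. Ryr1 was 24.0-fold higher after differentiation in Twist2 cells and 11.3-fold higher in GFP cells. Jph1 was 12.1-fold higher in Twist2 and 7.63-fold higher in GFP cells. Atp2a1 was 21.2-fold higher in Twist2 and 13.1-fold higher in GFP cells. These 3 were among the 4 highest of the 8 by CPM per kb of the longest transcript in both growth medium libraries. With the median transcript length of each gene Jph1 ranked 5 in GFP growth medium. The genes of lumenal storage and of voltage sensing had larger ratios. Casq2 was 224-fold higher in Twist2 and 463-fold higher in GFP cells. Srl was 73.2-fold higher in Twist2 and 122-fold higher in GFP cells, and Hrc was 279-fold higher in Twist2 and 60.5-fold higher in GFP cells. For Cacna1s the log2 ratios of CPM were 8.98 (interval 7.43 to 11.26) in Twist2 cells and 8.01 (interval 7.44 to 8.66) in GFP cells. Trdn was 154-fold higher in Twist2 cells, from 8 reads in growth medium, and 32.5-fold higher in GFP cells.

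**Figure D3:**
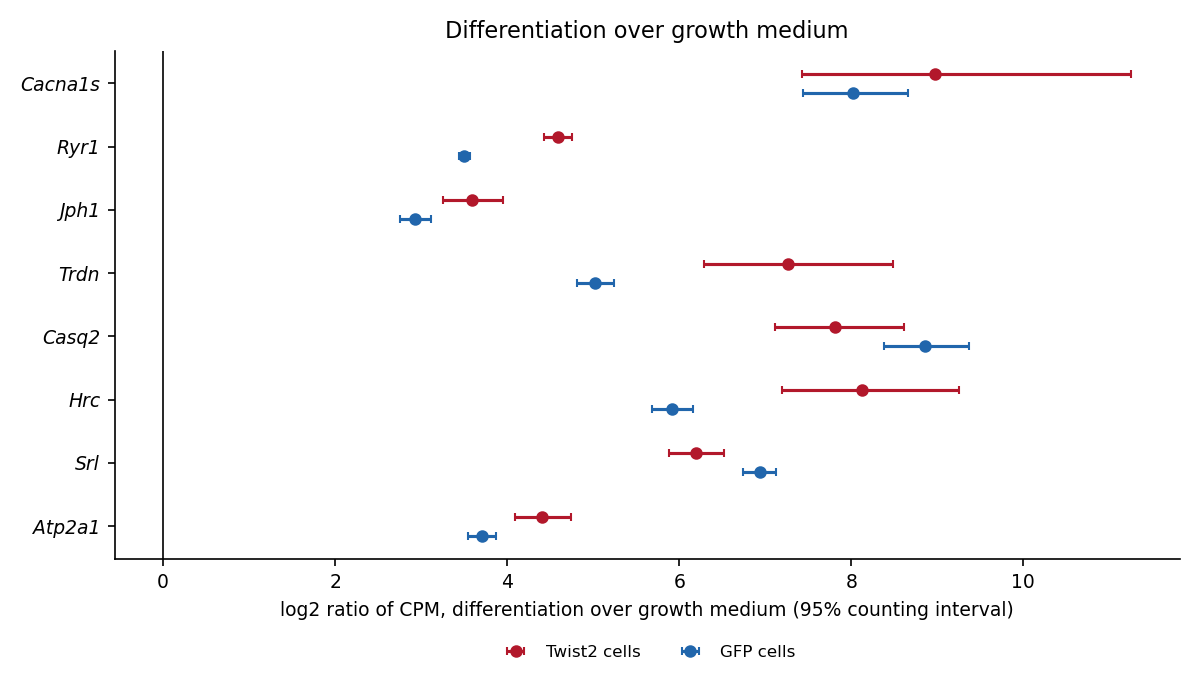
Log2 ratio of CPM, differentiation over growth medium, for each gene in Twist2 and GFP cells, with 95% counting intervals. Ryr1, Jph1 and Atp2a1 lie below 5 in both cultures, and the Twist2 point lies to the right of the GFP point for Trdn and Hrc and to the left for Casq2 and Srl.

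The difference of the 2 responses, Twist2 minus GFP, split the genes. On CPM without a pseudocount it was above 0 for 6 genes and below 0 for Casq2 and Srl. Trdn had a difference of 2.24 (interval 1.23 to 3.48) and Hrc 2.21 (interval 1.24 to 3.36). For Ryr1 it was 1.08 (interval 0.91 to 1.26), for Atp2a1 0.70 (interval 0.34 to 1.07) and for Jph1 0.66 (interval 0.27 to 1.07). On the other side, Casq2 had -1.04 (interval -1.93 to -0.09) and Srl -0.74 (interval -1.11 to -0.36). Cacna1s could not be placed, with 0.96 (interval -0.76 to 3.34). With the pseudocount of 1 CPM, 3 genes (Ryr1, Trdn and Hrc) were at least 2-fold higher and 1 (Casq2) was lower. With a pseudocount of 0.1 CPM and with no CPM minimum the counts were also 3 higher and 1 lower. The 3 calls of higher did not hold with a pseudocount of 5 CPM, where 0 were higher and 3 lower. Nor did they hold with size factors, with 0 and 2, or with libraries scaled to the reads outside the table, with 0 and 3. The counts with 1 CPM stand against backgrounds of 25.5% of 3760 genes higher and 12.6% lower, and the value of Cacna1s was then -0.77. The 958 higher and 473 lower genes of that background became 717 and 779 with size factors and 568 and 1065 with libraries scaled to the reads outside the table. A positive difference does not mean a higher end point, since every gene ended lower in Twist2 than in GFP cells. With a pseudocount of 5 CPM the values of Trdn and Hrc turned to -0.36 and -0.20. With libraries scaled to the reads outside the table that of Jph1 turned to -0.05 and that of Atp2a1 fell to 0.0045. Ryr1 and Atp2a1 stayed above 0 and Casq2 and Srl below 0 in the alternatives run.

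Ratios between genes of the same library do not depend on how libraries are scaled, and they were compared per kb of the longest transcript. The voltage sensor was scarce beside its channel before differentiation: Cacna1s had 0.479 of the level of Ryr1 per kb in Twist2 differentiation medium (interval 0.454 to 0.505) and 0.630 in GFP differentiation medium (interval 0.612 to 0.648), but 0.0228 in Twist2 growth medium (interval 0.00468 to 0.0673) and 0.0276 in GFP growth medium (interval 0.0176 to 0.0411). The interval of the Twist2 library lay below that of the GFP library in differentiation medium, and the intervals overlapped in growth medium. Casq2 had 2.78 times the level of Ryr1 per kb in Twist2 differentiation medium and 4.13 times in GFP differentiation medium, against 0.298 in Twist2 growth medium and 0.101 in GFP growth medium. Trdn had 0.541 and 0.855 of the level of Ryr1 per kb in Twist2 and GFP differentiation medium, and 0.0843 and 0.298 in Twist2 and GFP growth medium. All 3 partners were thus lower relative to Ryr1 with Twist2 after differentiation. Jph1 went the other way, with 0.367 of the level of Ryr1 in Twist2 and 0.277 in GFP cells after differentiation, and 0.732 and 0.411 in growth medium. The length trend between libraries bears on these ratios too. Ryr1 lies in a length group with a median log2 ratio of -0.78, Twist2 over GFP, in differentiation medium. Those medians were -0.25 for the group of Jph1 and Cacna1s, 0.07 for that of Trdn and 0.29 for that of Casq2. The part of length in these ratios was not tested.

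The balance of the lumenal proteins singled out the GFP growth medium library. Hrc had 0.742 of the level of Casq2 per kb in Twist2 differentiation medium (interval 0.707 to 0.779), 0.574 in GFP differentiation medium (interval 0.559 to 0.589), 0.596 in Twist2 growth medium (interval 0.232 to 1.43) and 4.39 in GFP growth medium (interval 3.03 to 6.50). The interval lay wholly above 1 in that library alone. Srl had 2.37 times the level of the pump Atp2a1 in Twist2 and 4.54 times in GFP differentiation medium, and 0.687 and 0.485 in Twist2 and GFP growth medium. Whether sarcalumenin stood below the pump before differentiation depended on the length used. With median transcript lengths, 0.366 kb for Srl against 5 kb for its longest transcript, Srl had 20.7 and Atp2a1 3.69 CPM per kb in Twist2 growth medium, and 62.5 and 15.8 in GFP growth medium. The length used as divisor cancels in the change of this ratio between libraries. The length trend between libraries does not. Srl and Atp2a1 lie in length groups with median log2 ratios of -0.25 and 0.29, Twist2 over GFP, in differentiation medium. The part of that trend in the change was not tested.

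By CPM per kb of the longest transcript the order after differentiation began with Casq2, Srl and Hrc and ended with Cacna1s and Jph1 in both cultures. Casq2 had 127 CPM per kb in Twist2 and 669 CPM per kb in GFP differentiation medium, and Jph1 had 16.8 and 44.8. Neighbours in this order had overlapping intervals only for Atp2a1 (46.9 CPM per kb) and Ryr1 (45.6 CPM per kb) in Twist2 differentiation medium. In growth medium Ryr1 and Atp2a1 led instead, with 1.90 and 2.21 CPM per kb in Twist2 cells, whose intervals overlapped, and 14.3 and 9.45 CPM per kb in GFP cells. Cacna1s was last in both. There 6 of 7 neighbouring pairs overlapped in Twist2 and 3 of 7 in GFP cells. With median transcript lengths the order differed: it began with Srl, Casq2 and Ryr1 in both differentiation medium libraries (1519, 346 and 252 CPM per kb in Twist2, 7644, 1826 and 893 in GFP). In growth medium it then began with Srl, Ryr1 and Atp2a1 in Twist2 cells and with Ryr1, Srl and Trdn in GFP cells, and Cacna1s was last in both. The order of genes within a library is thus uncertain by length. Of the summed CPM per kb of the longest transcripts of the 8 genes, Casq2 made up 26.0% in Twist2 and 30.6% in GFP differentiation medium, and 6.96% and 3.10% in Twist2 and GFP growth medium. Ryr1 made up 9.35% and 7.42% after differentiation, and 23.4% and 30.7% before it.

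**Figure D4:**
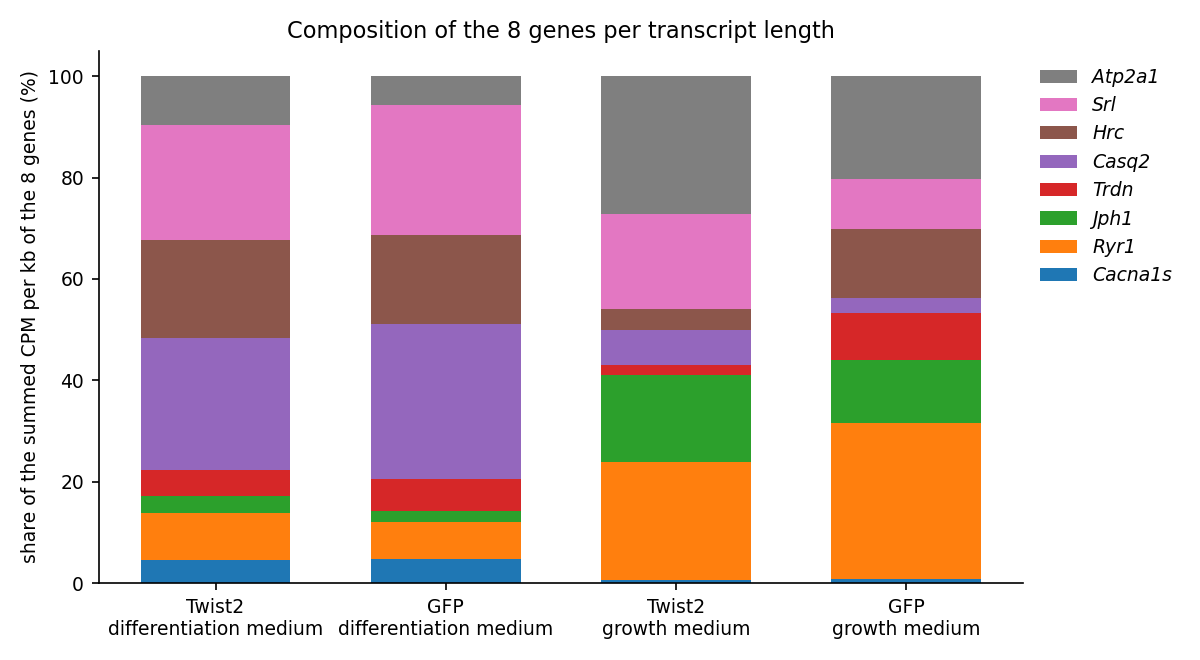
Share of each gene in the summed CPM per kb of the longest transcripts of the 8 genes (%, bars stacked to 100) in the 4 libraries. Casq2, Hrc and Srl fill most of both differentiation medium bars, and Ryr1 (23.4% and 30.7%) and Atp2a1 (27.2% and 20.3%) are the widest bands of the Twist2 and GFP growth medium bars.

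Other calcium-handling genes were taken from a list of 77 names, of which 33 were in the table. In differentiation medium 11 were at least 2-fold lower and 2 higher with Twist2, and in growth medium 15 were lower and 0 higher, among 32 and 31 tested and against the same backgrounds as above. With libraries scaled to the reads outside the table, 20 were lower and 1 higher in differentiation medium. The background moved too, to 1548 lower and 497 higher genes over the table. With size factors 12 were lower and 0 higher in growth medium, beside 241 lower and 272 higher genes over the table. The authors' selection bears on the growth medium count, since it rests on that contrast too. The medians of the log2 ratio of CPM + 1 were -0.65 and -0.86, against -2.12 and -1.94 for the 8 genes. Those lower in both media were 6 genes, among them Cacnb1, a further subunit of the voltage sensor (-1.72 in differentiation and -1.39 in growth medium), and Cacna2d1, Homer1, Camk2a and Klhl31. With size factors Cacna2d1 had -0.78 in growth medium and was not counted as lower there.

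Another 9 of these genes were at least 2-fold lower with Twist2 in growth medium and not in differentiation medium: Stac3, Ank1, Tmem38a, Jsrp1, Cacng1, Tmem38b, Slc8a1, Gem and Atp2b4. That contrast depended on scaling. With size factors it held for 7 of them, since Slc8a1 and Gem were not counted as lower in growth medium. With libraries scaled to the reads outside the table the first 6 were at least 2-fold lower in differentiation medium too, with Stac3 at -1.16, Ank1 at -1.10, Tmem38a at -1.25 and Jsrp1 at -1.24. The values that follow are on CPM as deposited. Stac3, an adaptor needed for the voltage sensor to reach the membrane, had 202 CPM in Twist2 and 299 CPM in GFP differentiation medium, and 29.1 and 143 CPM in Twist2 and GFP growth medium (log2 ratios of CPM + 1 of -0.57 and -2.26). Ank1, whose small muscle form sits in the reticulum membrane, had log2 ratios of -0.51 in differentiation and -2.98 in growth medium. Tmem38a, a potassium channel of the reticulum, had -0.65 and -1.72, and Jsrp1, a junctional protein that binds the voltage sensor, had -0.65 and -1.68. The mitochondrial uniporter Mcu had the opposite order, with a log2 ratio of -1.65 in differentiation medium and 106 CPM in both growth medium libraries. Rrad, an inhibitor of calcium channels, had -2.22 in differentiation medium and did not reach 10 CPM in growth medium.

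The 2 genes higher with Twist2 in differentiation medium were Itpr2, a release channel opened by inositol trisphosphate (32.9 CPM in Twist2 and 8.88 CPM in GFP cells, log2 ratio 1.78), and Sri, which encodes sorcin, a calcium-binding regulator of release (27.6 CPM in Twist2 and 10.5 CPM in GFP cells, log2 ratio 1.31). Atp2a2, the pump of slow fibres and other cells, had 1170 CPM in Twist2 and 1950 CPM in GFP differentiation medium, a log2 ratio of -0.74 against -1.39 for Atp2a1. Over differentiation itself 21 of the 33 were higher and 4 lower in Twist2 cells, and 25 were higher and 5 lower in GFP cells, against the backgrounds of 26.5% higher and 24.5% lower in Twist2 cells and 32.6% higher and 40.9% lower in GFP cells. The authors' selection bears on these counts in both cultures. The lower ones in both cultures were Stac2, Itpr3 and Sri, with Atp2b1 in Twist2 cells, and with Itpr2 and Atp2b4 in GFP cells.

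**Figure D5:**
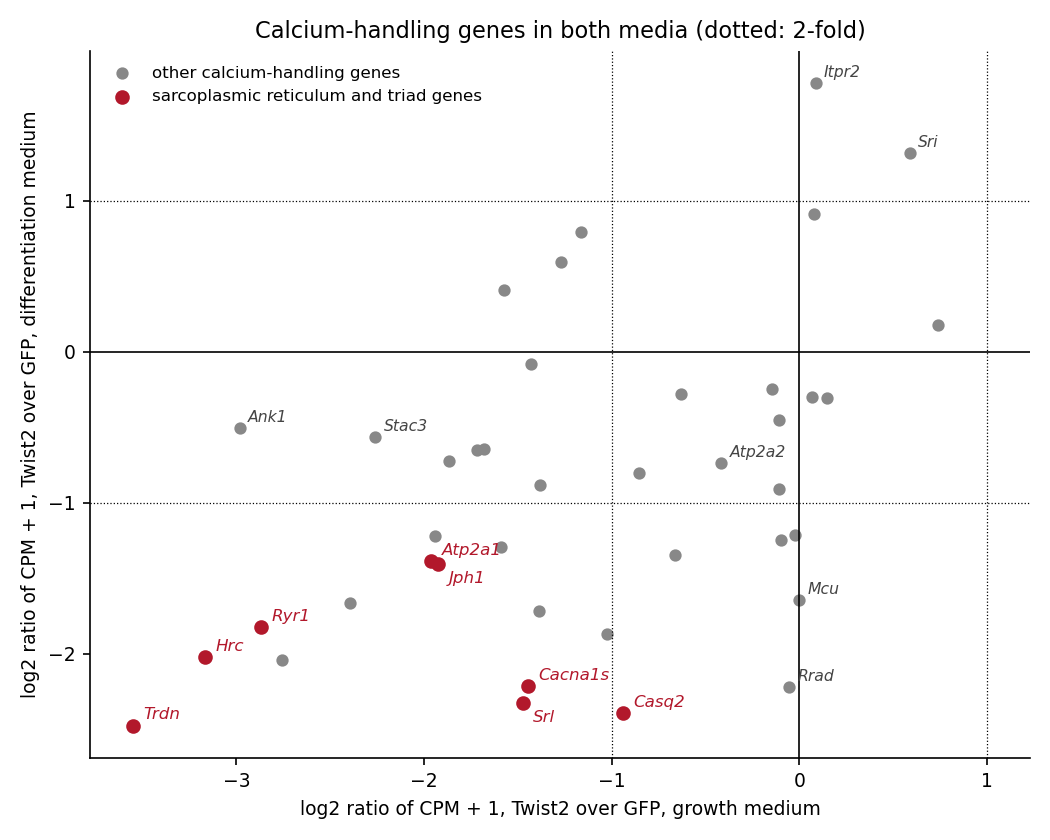
Log2 ratio of CPM + 1, Twist2 over GFP, in growth medium (horizontal) and in differentiation medium (vertical) for the 8 genes and 33 other calcium-handling genes, 1 point per gene, with dotted lines at 2-fold. The 8 genes lie in the lower left, Ank1 and Stac3 are among the points left of the 2-fold line in growth medium but within it in differentiation medium, and Itpr2 (1.78) and Sri (1.31) lie above the line in differentiation medium.

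Genes of the table with the most similar profile were found by the root mean square distance of log2(CPM + 1), centred on each gene's mean over the 4 libraries. Nearest to the mean of the 8 genes was Tnni2, fast troponin I, at a distance of 0.10, with 63.0 CPM in Twist2 and 275 CPM in GFP differentiation medium, and 0.181 and 5.23 CPM in Twist2 and GFP growth medium. C1qtnf3, a secreted protein, followed at 0.12. Further genes of the nearest 10 were Col25a1, Fst, Tmem182, Pygm, Art1, Myom1 and Pgam2. The 8 genes themselves lay at distances from 0.52 (Trdn and Srl) to 1.22 (Jph1) from their mean, so that these neighbours were closer to the mean than any of the 8. Jph1 lay nearest to Camk2a (0.09), Trdn to Myom3 (0.16), and Ryr1 to Klhl40 (0.13). Cacna1s and Srl shared Smpx as their nearest gene (0.17 and 0.19). Hrc lay nearest to Tmem8c, the membrane fusion protein myomaker (0.23), Atp2a1 to Tspan13 (0.20) and Casq2 to Ctrb1 (0.25). With 4 libraries many genes can share a profile, and 5 of the 10 nearest genes recurred with a pseudocount of 0.1 CPM and 5 with 5 CPM.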

How the data were processed

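Illumina libraries were made from total RNA, per the labels' protocols. TopHat2 2.0.0, DESeq2 1.6.3 and GRCm38 (mm10) are named without roles, per the submitters' processing notes; no counter, annotation or strand setting is given in the sources used here. For 3760 genes the authors deposited CPM values and 3 columns of log2 ratios against GFP growth medium, per the file headers. The table is selected: as its values show, all its genes reach 10 CPM in 2 or more libraries and differ 2-fold or more in 1 or more of those columns.

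All CPM values (100%) were whole multiples of 1 read within 0.001 reads, which gave reads and library totals. Ratios were computed on CPM + 1 for calls, and on reads with exact conditional binomial (Clopper-Pearson) 95% intervals; for the difference of responses the interval is the exact conditional one of an odds ratio. Intervals and the floor of 3 reads cover counting error only. Lengths and positions are from GENCODE M21 (GRCm38; 95.9% of genes matched). Python 3.11.15, SciPy 1.17.1 and Matplotlib 3.10.9 were used, and the calculation was tested on simulated counts. Alternatives were other pseudocounts, 2 other scalings, no CPM minimum, a 4-fold threshold and, for the order by CPM per kb, the median transcript length. All 8 genes are named in every comparison, every listed calcium-handling gene may be named, and profile neighbours are the 10 nearest to the mean and the 3 nearest to each gene, of which the nearest is given. The genes, lists and rules were chosen with earlier results of these data known. The values of 1 calcium-handling gene are not reported here by name.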

Additional observations from a re-analysis of the deposited data

How the results depend on the processing

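No paired analysis was possible because each group has 1 library, and for the same reason no library could be left out. All 8 genes kept their direction in all 4 comparisons of 2 libraries under both other pseudocounts and both other scalings. The median over the 8 genes, on CPM + 1, was set against the medians of the 8 lower and 8 upper counting bounds. Those bounds are of single genes without a pseudocount, so they are not an interval of the median. It lay outside them as follows. For differentiation of Twist2 cells the value as reported, 6.02, also lay below the median lower bound of 6.08. With a pseudocount of 5 CPM it was -1.54 for Twist2 against GFP in growth medium, 4.56 and 5.11 for differentiation in Twist2 and GFP cells, and -0.28 for the difference of responses, where Trdn (-0.36) and Hrc (-0.20) changed sign. With median-of-ratios size factors these 4 medians were -1.71, 6.08, 5.73 and 0.25, and 2 genes (both lower) passed 2-fold in the difference of responses. With libraries scaled to the reads outside the table the medians were -2.72 for Twist2 against GFP in differentiation medium, 6.18 for differentiation of GFP cells and -0.023 for the difference of responses. Under that scaling the all-gene median moved by -0.57, 0.78 and -0.52 in these comparisons. In differentiation medium 21 calcium-handling genes were then 2-fold different (20 lower), beside 2045 of all genes (1548 lower). Size factors moved it by 0.23, 0.34 and -0.29 in growth medium, GFP differentiation and the difference of responses. By construction a scaling moves all ratios of a comparison together, and a pseudocount shrinks the ratios of low genes.

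At 4-fold, 5 and 3 of the 8 genes were lower with Twist2 in differentiation and growth medium, and 0 passed in the difference of responses. Calcium-handling genes past 4-fold were 2 and 4 for Twist2 against GFP in the 2 media, 15 and 16 for differentiation of Twist2 and GFP cells, and 2 for the difference. The counts over all genes were then 516, 133, 629, 996 and 367. These counts of calcium-handling and of all genes take higher and lower genes together. Lower with Twist2 past 4-fold were 178 of 3437 tested genes in differentiation medium and 97 of 3514 in growth medium. The 2 and 4 calcium-handling genes of these media were all lower. A counting interval that excludes equality, chosen after seeing the data, held for 3436, 2708 and 3508 genes in differentiation medium, growth medium and Twist2 differentiation, and for 32 and 25 calcium-handling genes in the 2 media. Depth limits Cacna1s (3 reads), Trdn (8) and Hrc (9) in Twist2 growth medium most. With median transcript lengths 23, 26, 24 and 21 of 28 pairs of genes kept their order by CPM per kb in Twist2 and GFP differentiation medium and Twist2 and GFP growth medium.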
